A study of Mus musculus with 36 samples.

Results

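Fibroblasts of the meninges, the membranes that cover the brain, express a recognisable set of genes for extracellular matrix, solute transport, retinoic acid synthesis and signalling. In mouse hypothalamus this set was lower on average than in control mice after an injection of TNFα, IL-6 or both, but no gene of the set passed a test at an adjusted p of 0.05, and the 6 control mice differed from each other more than the group means did. The set holds 37 genes, named by a fixed list of symbols and taken from the deposited table of 18820 genes with a transcript cluster of their own. All 37 were present and all passed the minimum intensity of 20 on at least 3 arrays, as did 15048 genes in all. The genes had been chosen with their differences from Control known, so those differences are given as a description and support nothing.

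Male C57BL/6 mice received 50 µl intraperitoneally and were killed 5 h later, and hypothalamic RNA of 6 mice of the 12 in each group was put on Affymetrix Mouse Gene 1.1 ST arrays, 1 array per mouse. Control mice received the vehicle without cytokine, the TNF group 15 pg TNFα, IL-6 Low 50 pg and IL-6 High 800 pg IL-6, and TNF + IL-6 Low received 15 pg TNFα with the lower dose of IL-6, as TNF + IL-6 High did with the higher dose. No genetic modification of the mice is given, and the labels call the TNF dose low although a single dose was used. Control replicates 5 and 6 carry other mouse numbers in the array names than in the sample labels, and both sources call them Control. TNF replicate 4 was left out throughout: over all clusters it correlated with the remaining arrays at a median of 0.270, where each of those had 0.972 to 0.988, so the TNF group has 5 arrays.

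The meninges consist of layers of fibroblasts in a collagen-rich matrix, with blood vessels and macrophages between them. Meningeal fibroblasts secrete small leucine-rich proteoglycans that bind collagen, take up and export organic ions and amino acids through solute carriers, and release retinoic acid, bone morphogenetic proteins and IGF2, signals known for their part in brain development. In bulk hypothalamus, a tissue piece with fewer of these cells cannot be told apart from 1 with less RNA of these genes per cell. In these samples 10 of 11 measured neuropeptide and related hypothalamic genes were above an intensity of 20 on every array, and of 28 further meningeal fibroblast genes outside the set all 28 passed the minimum intensity.

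Promoter sequences are shown for members that passed 1.5-fold in the most comparisons, all of which varied together from array to array. For the 5 members that were lower by more than 1.5-fold in 3 comparisons, the 250 bases before the RefSeq start in build GRCm38.p6 are printed 5′ to 3′ on the strand of the gene, for Fmod at chr1:134037004-134037253 (plus strand), Slc13a4 at chr6:35308127-35308376 (minus strand), Slc6a20a at chr9:123678833-123679082 (minus strand) and Aldh1a2 at chr9:71215539-71215788 (plus strand). Osr1 was not in the promoter table. Capitals mark matches on either strand to any of the 7 motifs searched.
Fmod: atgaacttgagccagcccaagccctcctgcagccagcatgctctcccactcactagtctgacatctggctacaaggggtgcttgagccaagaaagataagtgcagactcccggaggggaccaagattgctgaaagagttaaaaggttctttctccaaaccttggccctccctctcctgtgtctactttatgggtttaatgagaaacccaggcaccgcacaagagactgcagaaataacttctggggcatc
Slc13a4: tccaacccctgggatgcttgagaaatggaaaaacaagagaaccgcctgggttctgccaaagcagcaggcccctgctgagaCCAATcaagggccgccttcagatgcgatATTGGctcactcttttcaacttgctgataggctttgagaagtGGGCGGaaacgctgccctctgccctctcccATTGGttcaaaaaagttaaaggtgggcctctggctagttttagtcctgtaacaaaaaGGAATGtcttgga
Slc6a20a: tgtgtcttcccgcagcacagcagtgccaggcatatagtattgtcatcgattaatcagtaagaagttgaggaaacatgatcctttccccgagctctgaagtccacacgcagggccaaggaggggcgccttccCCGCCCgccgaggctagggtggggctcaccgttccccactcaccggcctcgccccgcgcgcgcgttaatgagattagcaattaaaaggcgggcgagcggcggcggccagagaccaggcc
Aldh1a2: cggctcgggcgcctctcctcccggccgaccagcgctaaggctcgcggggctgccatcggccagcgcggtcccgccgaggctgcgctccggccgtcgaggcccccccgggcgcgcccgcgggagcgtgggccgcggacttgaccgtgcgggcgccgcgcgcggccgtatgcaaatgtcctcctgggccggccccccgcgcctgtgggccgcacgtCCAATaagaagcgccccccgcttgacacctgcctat

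Of the members, 26 were in the promoter table, with 37 windows of 250 bases among 32851. Of these 26 members, 19 had 1 window and the others several, so shares of windows are not shares of genes. The letters searched, each on both strands, were GGGCGG for the GC box, the CCAAT box, the TATA box as TATAAA, the TEAD motif as GGAATG, the nuclear receptor half-site AGGTCA, the FOX motif GTAAACA and the T-box motif AGGTGTGA. The Slc13a4 promoter held CCAAT or its complement at 170, 142 and 70 bases before the start, a GC box at 100 and the TEAD letters at 13. Slc6a20a held 1 GC box, Aldh1a2 held 1 CCAAT box 36 bases before the start, and no letters of the 7 motifs were in the Fmod window. Over the member windows the GC box was found in 51.4% against 32.7% of all windows, the TEAD letters in 21.6% against 12.6%, CCAAT in 29.7% against 33.8%, TATAAA in 5.41% against 12.4% and AGGTCA in 13.5% against 14%. The FOX and T-box letters were in none of the 37 member windows, against 3.17% and 1.12% of all windows. A match describes letters only and is not a binding site.

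To set the whole set against the groups, the level of the 37 genes on an array was taken as the mean over the genes of their log2 intensity minus their mean over the 35 arrays. On the 6 control arrays, replicates 1 to 6, it was 0.96, 0.17, -0.17, 0.87, 0.40 and -0.59. The control group thus held both the highest arrays of the series, replicates 1 and 4, and 1 of the lowest, replicate 6. The 5 TNF arrays lay at -0.50, 0.07, -0.39, 0.11 and 0.44. After IL-6 Low the lowest, median and highest level were -0.58, 0.10 and 0.49, and after IL-6 High they were -0.67, -0.27 and 0.32. Both ranges lay below Control replicates 1 and 4 and overlapped those of the other controls. TNF + IL-6 Low ran from -0.64 over a median of -0.13 to 0.15, and TNF + IL-6 High from -0.31 over 0.11 to 0.54.

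Of the 29 treated arrays, 27 lay within the control range and 2 below it. The mean level was 0.27 ± 0.60 (SD, n = 6) in Control, 0.11 ± 0.30 after TNF + IL-6 High, 0.02 ± 0.39 after IL-6 Low, -0.06 ± 0.38 (n = 5) in TNF, -0.16 ± 0.30 after TNF + IL-6 Low and -0.19 ± 0.38 after IL-6 High. In this order each group differed from its neighbour by less than either SD. Of the variance of the level over the arrays, 84.1% lay within groups, and the lowest and the highest array were 3.09-fold apart. Leaving out Control replicate 6 narrowed the control range from 1.55 to 1.13. The level also differed by replicate number, each of which lies under 1 letter in the array names. Its mean deviation from the group means lay between -0.27 for replicate 3 and 0.31 for replicate 4, and all 6 arrays of replicate 3 had a level below 0. The part of the replicate number in the members' differences was not tested beyond the fits with it as a block.

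**Figure D1:**
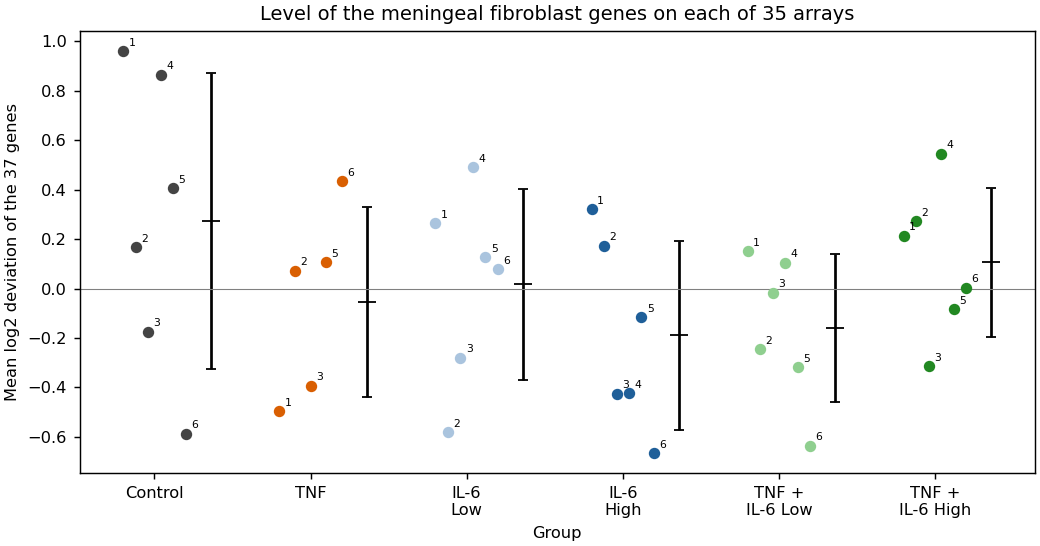
Mean log2 deviation of the 37 meningeal fibroblast genes (y axis) on each array, by group (x axis), with replicate numbers beside the points and the group mean with SD as a bar. Control replicates 1 and 4, at 0.96 and 0.87, lie above all treated arrays, and Control replicate 6, at -0.59, lies near the lowest of them.

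Against Control, the question was how far each gene of the set was lower after each injection. In TNF 36 of the 37 members had a lower mean, with a median log2 difference of -0.30, against 0.01 over all genes, and 6 were lower by more than 1.5-fold, a size that 0.0598% of all genes reached. After IL-6 Low 36 were lower, with a median of -0.24 (all genes -0.01) and none past 1.5-fold (0.00665% of all genes). IL-6 High had 36 lower, 11 of them past 1.5-fold (0.12%), and a median of -0.47 (all genes 0.00461). After TNF + IL-6 Low all 37 were lower, 11 past 1.5-fold (0.106%), with a median of -0.42 (all genes -0.02). TNF + IL-6 High had 34 lower and none past 1.5-fold (0.00665%), with a median of -0.19 (all genes -0.02). Means below Control at any size were found for 44.6%, 54.1%, 47.4%, 55.9% and 62.3% of all genes in these comparisons, in the same order. No member was higher by more than 1.5-fold, a size that 0.153%, 0.0199%, 0.0133%, 0.173% and 0.0598% of all genes had. All 5 comparisons share the same 6 control arrays, so their similar values are not independent.

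No gene of the whole table, and so no member, reached an adjusted p of 0.05 against Control (limma, Benjamini-Hochberg over 15048 genes). The smallest adjusted p of a member was 0.912, 1.00, 1.00, 0.511 and 1.00. Unadjusted p values under 0.05 were held by 3, 0, 17, 12 and 0 members and by 794, 211, 313, 1443 and 309 of all genes (5.28%, 1.4%, 2.08%, 9.59% and 2.05%), with the groups in the order of the paragraph before. The median standard error of a member's difference was 0.22, and 0.23 in the TNF comparison.

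The counts of members past 1.5-fold hung on single arrays. Without Control replicate 1 they were 0 in TNF, 1 after IL-6 High and 1 after TNF + IL-6 Low, and without Control replicate 4 they were 0, 4 and 1. Without Control replicate 6 they were 12 in TNF, 8 after IL-6 Low, 21 after IL-6 High, 18 after TNF + IL-6 Low and 2 after TNF + IL-6 High, and without Control replicate 3 they were 10 in TNF, 3 after IL-6 Low and 18 after IL-6 High. The counts of members lower at any size were 33, 35, 36, 37 and 24 in the 5 comparisons without Control replicate 1. Without Control replicate 4 they were 32, 35, 35, 37 and 24. After TNF + IL-6 High the count thus fell from 34 to 24 of 37, where 62.3% of all genes were lower with all 35 arrays. The shares of all genes lower without these arrays are not given here.

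**Figure D2:**
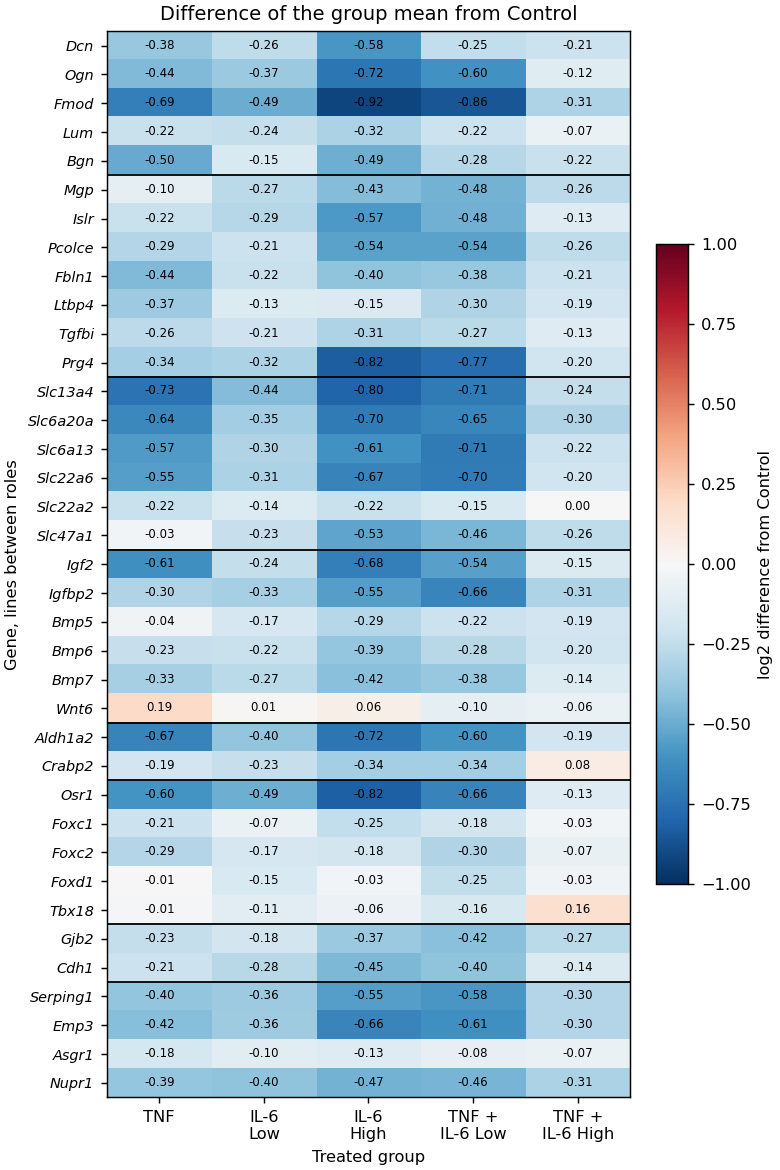
log2 difference of each treated group's mean from Control (columns) for the 37 genes (rows, with lines between roles), blue for lower and red for higher. The column of IL-6 High holds the most negative value, -0.92 for Fmod, and the column of TNF + IL-6 High the palest, none past 1.5-fold.

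The small leucine-rich proteoglycans coat collagen fibrils and set their thickness, and all 5 of the set (Dcn, Ogn, Fmod, Lum and Bgn) had lower means in every treated group. Fmod, fibromodulin, had a lowest, median and highest log2 intensity of 5.43, 7.27 and 8.45 on the control arrays. On the TNF arrays it lay at 5.98, 6.37, 5.81, 6.49 and 7.39. The values were 5.44, 6.73 and 7.67 after IL-6 Low, 5.34, 6.17 and 7.07 after IL-6 High, 5.23, 6.23 and 7.40 after TNF + IL-6 Low and 6.28, 6.78 and 7.39 after TNF + IL-6 High. Control replicate 1 was the highest array and 27 of the 29 treated arrays lay within the control range. The difference from Control was -0.69 ± 0.42 (SE) in TNF, -0.49 ± 0.40 after IL-6 Low, -0.92 ± 0.40 after IL-6 High, -0.86 ± 0.40 after TNF + IL-6 Low and -0.31 ± 0.40 after TNF + IL-6 High.

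Ogn, osteoglycin, ranged from 5.44 over 7.91 to 8.99 in Control and was at 6.22, 7.54, 6.26, 7.57 and 8.05 in TNF. Its lowest, median and highest values were 6.38, 7.23 and 7.91 after IL-6 Low, 5.42, 6.80 and 7.95 after IL-6 High, 5.70, 7.20 and 7.53 after TNF + IL-6 Low and 6.71, 7.40 and 8.30 after TNF + IL-6 High. The control arrays spanned nearly the whole range of Ogn, which was 11.9-fold. Differences from Control were -0.44, -0.37, -0.72, -0.60 and -0.12, again in that order (TNF, both doses of IL-6, then both doses with TNF), which the rest of the account keeps, with standard errors of 0.45 to 0.48. Dcn, decorin, was at -0.38, -0.26, -0.58, -0.25 and -0.21, and its value after IL-6 High was just short of 1.5-fold. Bgn, biglycan, was at -0.50, -0.15, -0.49, -0.28 and -0.22. Lum, lumican, had an intensity over 20 on only 19 of the 35 arrays, and its differences were -0.22, -0.24, -0.32, -0.22 and -0.07.

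Of the other 7 matrix genes, all had lower means in each treated group. Prg4, which encodes lubricin, had the widest range of the set, 16.0-fold from the lowest to the highest array. It lay between 4.53 and 7.99 in Control (median 6.98) and at 5.18, 7.18, 5.34, 7.17 and 7.17 in TNF. After IL-6 Low its lowest, median and highest values were 4.97, 6.51 and 7.62, after IL-6 High 4.00, 6.12 and 7.15, after TNF + IL-6 Low 4.60, 6.02 and 7.00 and after TNF + IL-6 High 5.91, 6.44 and 7.27. The TNF arrays of Prg4 fell into a high and a low part, both inside the control range. Its differences were -0.34, -0.32, -0.82, -0.77 and -0.20, each with a standard error of at least 0.53, larger than the difference in 3 of the 5 groups.

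Mgp, an inhibitor of calcification, was at -0.10, -0.27, -0.43, -0.48 and -0.26, and Islr, a leucine-rich repeat protein of mesenchymal cells, at -0.22, -0.29, -0.57, -0.48 and -0.13. Pcolce, which enhances the trimming of procollagen, was at -0.29, -0.21, -0.54, -0.54 and -0.26. None of these came past 1.5-fold. Fbln1, fibulin-1, was at -0.44, -0.22, -0.40, -0.38 and -0.21, with 12 treated arrays below every control array. Tgfbi, an adhesion protein induced by TGF-beta, was at -0.26, -0.21, -0.31, -0.27 and -0.13. Ltbp4, which binds latent TGF-beta, was at -0.37 ± 0.12 (SE), -0.13 ± 0.11, -0.15 ± 0.11, -0.30 ± 0.11 and -0.19 ± 0.11. Ltbp4 thus had its largest difference in TNF, and 11 treated arrays lay below every control array, but it did not pass the test in any comparison.

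Of the 6 solute carriers, 4 were lower by more than 1.5-fold both after IL-6 High and after TNF + IL-6 Low. Slc13a4, a sodium-coupled sulfate transporter, lay at 5.54, 6.90 and 8.14 (lowest, median and highest) in Control and at 5.56, 6.05, 5.75, 6.30 and 7.22 in TNF. It was at 5.14, 6.77 and 7.23 after IL-6 Low, 5.24, 6.02 and 7.20 after IL-6 High, 5.48, 6.18 and 6.84 after TNF + IL-6 Low and 6.04, 6.64 and 7.48 after TNF + IL-6 High. The lowest treated arrays lay below Control replicate 6, and none reached Control replicate 1. Its differences were -0.73, -0.44, -0.80, -0.71 and -0.24, with standard errors of 0.38 to 0.39.

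Slc6a20a, an imino acid transporter, ranged from 7.21 over 8.22 to 9.27 in Control and was at 7.16, 7.73, 7.25, 7.64 and 8.46 in TNF. The lowest, median and highest values were 6.67, 8.13 and 8.73 after IL-6 Low, 6.93, 7.51 and 8.42 after IL-6 High, 7.35, 7.49 and 8.16 after TNF + IL-6 Low and 7.21, 8.01 and 8.54 after TNF + IL-6 High. No treated array came up to its highest control array, and 24 of the 29 lay within the control range. Its differences were -0.64, -0.35, -0.70, -0.65 and -0.30 (SE 0.31 to 0.33).

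Slc6a13, a GABA and taurine transporter, was at 5.50, 7.09 and 8.25 in Control and at 5.68, 6.56, 5.94, 6.84 and 7.34 in TNF. It was at 5.59, 6.87 and 7.44 after IL-6 Low, 5.88, 6.23 and 7.27 after IL-6 High, 5.43, 6.32 and 7.00 after TNF + IL-6 Low and 5.99, 6.91 and 7.60 after TNF + IL-6 High. Only 1 treated array was outside the control range. Its differences were -0.57, -0.30, -0.61, -0.71 and -0.22. Slc22a6, an organic anion transporter, was at 5.26, 6.25 and 6.78 in Control and at 4.83, 5.39, 5.15, 5.97 and 6.72 in TNF. Its values were 5.11, 6.01 and 6.41 after IL-6 Low, 5.09, 5.41 and 5.97 after IL-6 High, 4.81, 5.48 and 5.90 after TNF + IL-6 Low and 5.39, 5.99 and 6.45 after TNF + IL-6 High. The upper ends of IL-6 High and of TNF + IL-6 Low lay below the control median of Slc22a6. Its differences were -0.55, -0.31, -0.67, -0.70 and -0.20 (SE 0.26 to 0.27). Slc47a1, a proton-coupled exporter of organic cations, was at -0.03, -0.23, -0.53, -0.46 and -0.26. Slc22a2, an organic cation transporter with an intensity over 20 on 20 of the 35 arrays, was at -0.22, -0.14, -0.22 and -0.15 in the first 4 comparisons, and its mean after TNF + IL-6 High was almost equal to that of Control.

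**Figure D3:**
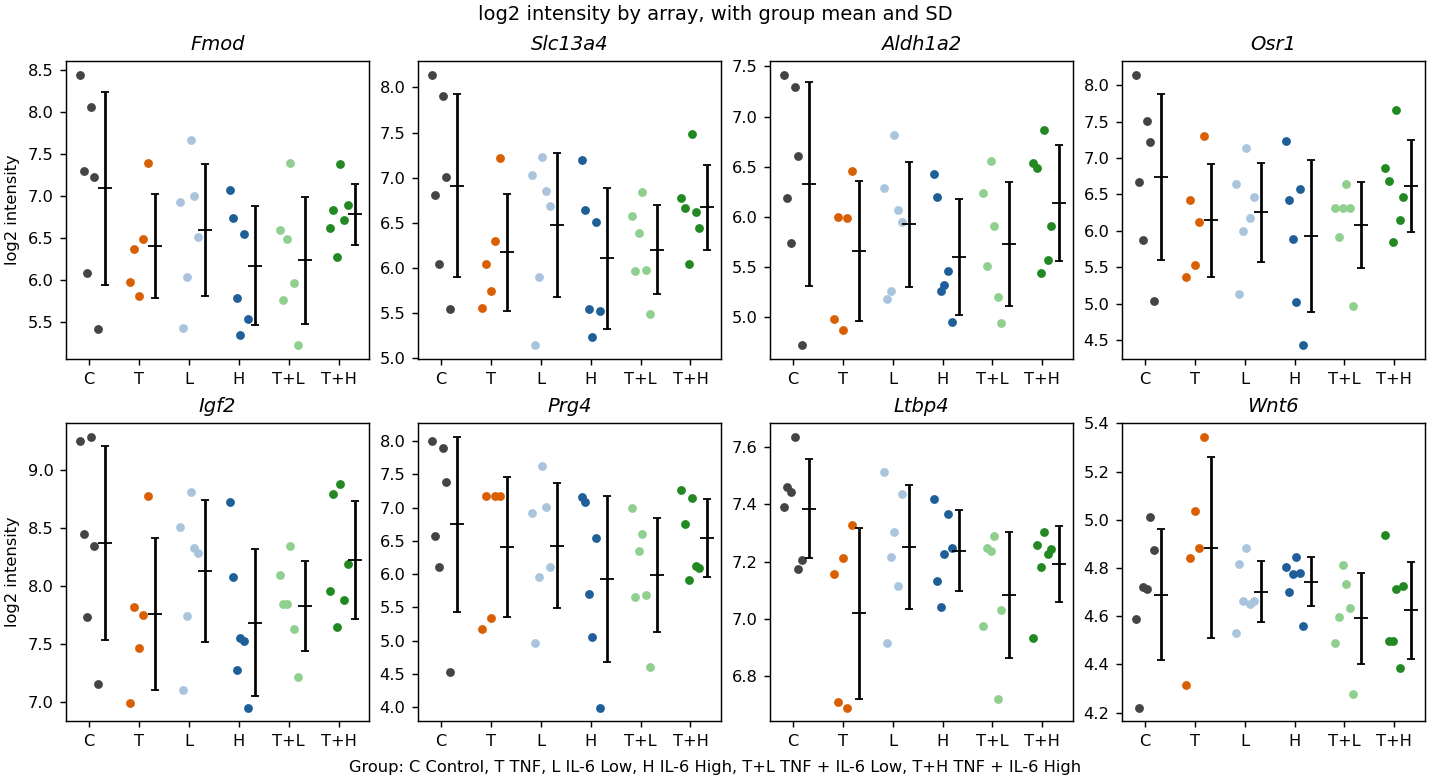
log2 intensity (y axis) of 8 genes on each array by group (x axis), with the group mean and SD as a bar. In the first 6 panels the control points spread over most of the panel and most treated points lie within that spread, while Ltbp4 and Wnt6 vary little in comparison.

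Among the growth factors and binding proteins, Igf2, insulin-like growth factor 2, lay at 7.16, 8.40 and 9.28 in Control and at 7.00, 7.82, 7.47, 7.75 and 8.77 in TNF. It was at 7.11, 8.31 and 8.81 after IL-6 Low, 6.96, 7.54 and 8.72 after IL-6 High, 7.22, 7.85 and 8.35 after TNF + IL-6 Low and 7.64, 8.07 and 8.88 after TNF + IL-6 High. The groups overlapped, and 26 of the 29 treated arrays were within the control range. Differences of Igf2 from Control were -0.61, -0.24, -0.68, -0.54 and -0.15 (SE 0.32 to 0.33). Igfbp2, which binds IGFs, was at -0.30, -0.33, -0.55, -0.66 and -0.31 and passed 1.5-fold after TNF + IL-6 Low alone. The bone morphogenetic proteins had smaller differences: Bmp5 was at -0.04, -0.17, -0.29, -0.22 and -0.19, Bmp6 at -0.23, -0.22, -0.39, -0.28 and -0.20 and Bmp7 at -0.33, -0.27, -0.42, -0.38 and -0.14. Wnt6, a secreted WNT ligand, had another order, at 0.19 ± 0.13 (SE) in TNF, 0.01 after IL-6 Low, 0.06 after IL-6 High, -0.10 after TNF + IL-6 Low and -0.06 after TNF + IL-6 High.

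Aldh1a2 makes retinoic acid from retinaldehyde. It lay at 4.72, 6.40 and 7.42 in Control and at 4.99, 6.00, 4.88, 5.99 and 6.46 in TNF. Its values were 5.18, 6.01 and 6.82 after IL-6 Low, 4.95, 5.39 and 6.43 after IL-6 High, 4.95, 5.71 and 6.56 after TNF + IL-6 Low and 5.44, 6.20 and 6.87 after TNF + IL-6 High. All 29 treated arrays of Aldh1a2 lay between Control replicates 6 and 1, its lowest and highest arrays. Differences from Control were -0.67, -0.40, -0.72, -0.60 and -0.19 (SE 0.36 to 0.38). Crabp2, which carries retinoic acid to the nucleus, was at -0.19, -0.23, -0.34, -0.34 and 0.08.

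Of the 5 transcription factors, Osr1, a zinc finger protein of mesenchyme, lay at 5.03, 6.95 and 8.15 in Control and at 5.37, 6.42, 5.52, 6.12 and 7.30 in TNF. It was at 5.13, 6.32 and 7.13 after IL-6 Low, 4.43, 6.15 and 7.23 after IL-6 High, 4.97, 6.31 and 6.64 after TNF + IL-6 Low and 5.85, 6.58 and 7.66 after TNF + IL-6 High. The range of Osr1 was 13.2-fold, with the highest array in Control and the lowest after IL-6 High. Its differences were -0.60, -0.49, -0.82, -0.66 and -0.13 (SE 0.43 to 0.45). The forkhead factors, needed for the development of the meninges and of other mesenchyme, differed less: Foxc1 was at -0.21, -0.07, -0.25, -0.18 and -0.03, Foxc2 at -0.29, -0.17, -0.18, -0.30 and -0.07 and Foxd1 at -0.01, -0.15, -0.03, -0.25 and -0.03. Tbx18, a T-box factor of pericytes and mesenchyme, was at -0.01, -0.11, -0.06, -0.16 and 0.16.

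Cdh1, the adhesion protein E-cadherin, which is found in the arachnoid layer, was at 5.14, 5.91 and 6.40 in Control and at 4.99, 6.07, 5.24, 5.96 and 5.87 in TNF. It was at 5.30, 5.57 and 5.92 after IL-6 Low, 4.62, 5.44 and 5.96 after IL-6 High, 5.07, 5.43 and 5.80 after TNF + IL-6 Low and 5.26, 5.65 and 6.19 after TNF + IL-6 High. All groups overlapped with Control, and the differences were -0.21, -0.28, -0.45, -0.40 and -0.14. Gjb2, a gap junction connexin, was at -0.23, -0.18, -0.37, -0.42 and -0.27.

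Emp3, a small membrane protein, was at 5.71, 6.92 and 7.77 in Control and at 5.89, 6.78, 6.09, 6.91 and 6.72 in TNF. Its values were 5.56, 6.64 and 7.35 after IL-6 Low, 5.82, 6.16 and 6.74 after IL-6 High, 5.60, 6.31 and 6.86 after TNF + IL-6 Low and 6.11, 6.46 and 7.25 after TNF + IL-6 High. The highest TNF + IL-6 Low array of Emp3 lay below its control median, as did that of IL-6 High. Its differences were -0.42, -0.36, -0.66, -0.61 and -0.30 (SE 0.28 to 0.30). Serping1, the inhibitor of the first complement component, was at -0.40, -0.36, -0.55, -0.58 and -0.30 and the stress-induced nuclear protein gene Nupr1 at -0.39, -0.40, -0.47, -0.46 and -0.31. Asgr1, a subunit of the asialoglycoprotein receptor, had an intensity over 20 on 11 arrays only and was at -0.18, -0.10, -0.13, -0.08 and -0.07.

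Over the 5 comparisons 33 of the 37 members had lower means in all. The exceptions were Wnt6, Crabp2, Tbx18 and Slc22a2. Fmod, Slc13a4, Slc6a20a, Aldh1a2 and Osr1 were past 1.5-fold in 3 comparisons, Ogn, Prg4, Slc6a13, Slc22a6, Igf2 and Emp3 in 2, Igfbp2 in 1 and 25 members in none. The shares of all genes that met these counts over the 5 comparisons are not given here. Because the comparisons share the control arrays, the counts are a description and support nothing. The most negative value was after IL-6 High for 22 members, after TNF + IL-6 Low for 11 and in TNF for 4, and the least negative was after TNF + IL-6 High for 27.

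The differences between treated groups do not use the control means. Their standard errors and p values come from a spread estimated over all 35 arrays, the controls included. Each such difference is still set by the differences of its groups from Control, which were known when the members were chosen. These comparisons are therefore also given as a description and support nothing. With TNFα given in both, all 37 members had a higher mean with the higher than with the lower dose of IL-6 (TNF + IL-6 High against TNF + IL-6 Low), with a median of 0.24 and a range of 0.02 to 0.57, none past 1.5-fold (0.0266% of all genes), while 48.4% of all genes were higher. Without TNFα the order was the other way round: 34 of 37 had a lower mean after IL-6 High than after IL-6 Low, with a median of -0.19, none past 1.5-fold (0.0199%), against 44.7% of all genes at any size. Adding TNFα to the higher dose of IL-6 went with a higher mean of 34 members, 4 of them past 1.5-fold (0.0598% of all genes), a median of 0.27 and 38% of all genes higher, and adding it to the lower dose with a lower mean of 34 members, a median of -0.17 and 53.4% of all genes lower. Against TNF alone, TNF + IL-6 High had 30 members higher, none past 1.5-fold (0.0465%), with a median of 0.16 and 34% of all genes higher, while TNF + IL-6 Low had 26 lower (median -0.14, 58.9% of all genes lower). Leaving out single arrays moved some of these medians by over 1.5 times. The median of TNF + IL-6 Low against TNF was 0.05 without TNF replicate 6, 0.01 without TNF + IL-6 Low replicate 6, -0.03 and -0.06 without TNF replicates 2 and 5, -0.06 without TNF + IL-6 Low replicate 2 and -0.22 without TNF replicate 1. For TNFα added to the lower dose it was -0.06 without TNF + IL-6 Low replicate 6, and -0.29 and -0.09 without IL-6 Low replicates 2 and 4. Between the doses given alone it was -0.11 without IL-6 High replicate 6, and -0.30 and -0.12 without IL-6 Low replicates 2 and 4. For TNF + IL-6 High against TNF it was 0.09 without TNF + IL-6 High replicate 4, and 0.10, 0.11 and 0.25 without TNF replicates 1, 3 and 6.

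None of these 6 comparisons gave a gene with an adjusted p under 0.05 (limma, 15048 genes), and neither did the F test of any difference among the 5 treated groups, where 504 genes (3.35%) and 0 members had an unadjusted p under 0.05. Members with an unadjusted p under 0.05 were 2 between the 2 combined groups (5.36% of all genes), 1 where TNFα was added to the higher dose (2.29%), 1 where the lower dose was added to TNFα (9.38%), and 0 in the other 3 (1.45% for the 2 doses alone, 4.63% for TNFα added to the lower dose and 4.09% for the higher dose added to TNFα). Because the members vary together, 37 genes on 1 side are not 37 separate observations. The departure from additive effects, the combined group plus Control minus both single groups, again uses the control arrays. A high control mean raises it, and the members had been chosen with their differences from Control known. The departure is therefore given as a description, with its p values, and supports nothing. It was above 0 for 35 members after TNF + IL-6 High and for 38.2% of all genes, with a median of 0.57 against -0.04 over all genes, and the members' median ran from 0.41 to 0.71 when each array was left out. There 15 members had an unadjusted p under 0.05, against 4.01% of all genes, and none an adjusted p under 0.05, the smallest being 0.961. After TNF + IL-6 Low the median departure was 0.18 (all genes -0.02), 28 members and 44.1% of all genes were above 0, and 0 members against 3.28% of all genes had an unadjusted p under 0.05. This median moved by over 1.5 times when single arrays were left out: it was 0.04 and 0.05 without Control replicates 1 and 4, 0.07 without either TNF replicate 1 or 3, 0.08 and 0.12 without IL-6 Low replicates 2 and 3, 0.11 without TNF + IL-6 Low replicate 1, 0.27 without TNF replicate 6 and 0.29 without Control replicate 6.

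Within groups the members shared most of their variation. After the group means were removed, the mean Pearson correlation over the 666 pairs of members was 0.662 across the 35 arrays, against 0.0742 over all pairs of tested genes, and 78.7% of the member pairs were above 0.5. It was 0.628 over the 29 treated arrays alone and between 0.559 and 0.744 within single groups, so it did not rest on the control arrays. A first principal component held 71.3% of the members' variation and the second 6.00%. The closest pairs were Ogn with Prg4 at 0.963, Fmod with Slc13a4 at 0.961 and Slc6a20a with Igf2 at 0.954. These correlations describe arrays that share scan, tissue piece and RNA, and no p is given.

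Set against the mean of the other 36 genes, 33 members had a correlation over 0.6 and 17 over 0.9. Aldh1a2 (0.962), Slc13a4 (0.959), Slc6a13 (0.956), Ogn (0.955) and Bmp6 (0.950) were the highest. Ltbp4 (0.292), Asgr1 (0.279), Wnt6 (0.236) and Tbx18 (0.162) stood apart from the rest, and Asgr1, Wnt6 and Tbx18 were below an intensity of 20 on some arrays. So were Lum (0.724), Slc22a2 (0.672), Crabp2 (0.739) and Prg4 (0.933), which did not stand apart. Members also varied more than most genes. Their median within-group SD was 0.42, from 0.19 for Tgfbi to 1.03 for Prg4, against 0.17 over all genes, and 29 of the 37 were among the 5% of genes with the highest SD. The highest array was Control replicate 1 for 20 members and Control replicate 4 for 11, and the lowest was IL-6 High replicate 6 for 8, TNF + IL-6 Low replicate 6 for 7, IL-6 Low replicate 2 for 6 and Control replicate 6 for 5.

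**Figure D4:**
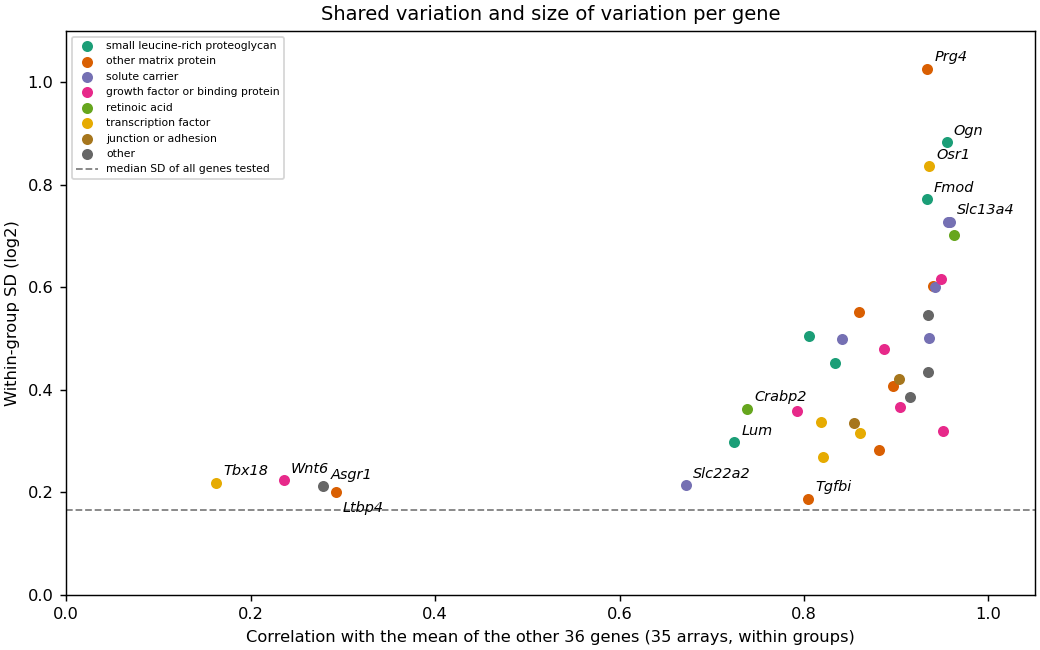
Within-group SD of each gene in log2 (y axis) against its correlation with the mean of the other 36 genes over 35 arrays (x axis), coloured by role, with the median SD of all tested genes as a dashed line. Ltbp4, Asgr1, Wnt6 and Tbx18 lie at the left, under 0.4, and the genes of largest SD, Prg4, Ogn and Osr1, lie at the right.

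Genes outside the set with the closest pattern were taken as the 10 with the highest correlation with the level of the set over the 35 arrays, group means removed. They were Itih2 (0.966), Aebp1 (0.965), Ranbp3l (0.959), Kcnj13 (0.956), Slc6a12 (0.939), Slc13a3 (0.932), Ptgds (0.925), Mpzl2 (0.923), Cped1 (0.922) and Ccn2 (0.918). All 10 had lower means than Control in each treated group. Kcnj13, a potassium channel known from the choroid plexus, had differences of -0.67, -0.44, -1.02, -0.80 and -0.21, and Ptgds, the prostaglandin D2 synthase of the leptomeninges, of -0.26, -0.24, -0.38, -0.48 and -0.11. Of the 15011 genes outside the set, 143 (0.953%) had a correlation over 0.6 and 1 under -0.6.

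Some members lie next to each other or to a relative on the chromosome. Slc6a12 and Slc6a13 on chromosome 6 correlated at 0.936, Ogn and Omd on chromosome 13 at 0.896, Slc22a6 and Slc22a8 on chromosome 19 at 0.722 and Dcn and Lum on chromosome 10 at 0.647. Position did not go with likeness in every case: Aspn, 1 gene away from Ogn, correlated with it at 0.294, Gjb2 with the adjacent Gjb6 at 0.349 and Igfbp2 with the adjacent Igfbp5 at 0.272.

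Marker lists of other cells were set beside the members, each as the mean log2 deviation per array. The 28 further meningeal fibroblast genes followed the set at a correlation of 0.988 over 35 arrays, and 13 of them were above 0.6 singly. In the 5 comparisons 22, 25, 25, 25 and 23 of the 28 had lower means than Control, against 44.6%, 54.1%, 47.4%, 55.9% and 62.3% of all genes. Their medians were -0.12, -0.20, -0.23, -0.20 and -0.16, and none was past 1.5-fold. Their summed linear intensity ran from 1759 to 3293 in Control, 1848 to 2746 in TNF, 1687 to 2437 after IL-6 Low, 1704 to 2366 after IL-6 High, 1659 to 2217 after TNF + IL-6 Low and 1874 to 2663 after TNF + IL-6 High. As in the set itself, the control arrays reached highest. Slc22a8, Cyp1b1 and Efemp1 had the largest differences, after IL-6 High -0.57, -0.53 and -0.58.

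The 6 measured markers of border macrophages, which live in the meninges and around vessels, correlated with the set at 0.832 and 6, 5, 6, 6 and 6 of them had lower means. Their summed intensity was 222 to 307 in Control, 204 to 270 in TNF, 198 to 284 after IL-6 Low, 195 to 242 after IL-6 High, 192 to 240 after TNF + IL-6 Low and 201 to 295 after TNF + IL-6 High. Mrc1, the mannose receptor, was at -0.12, -0.22, -0.39, -0.17 and -0.15. The 18 collagens correlated at 0.725 as a list, but singly 6 of them were over 0.6 and their median was 0.30. Col1a2, which followed the set most closely of them (0.863), was at -0.24, -0.23, -0.44, -0.21 and -0.10. Col8a2 (0.266) was at -0.11, -0.02, 0.14, 0.07 and 0.30. Of the collagens 15, 14, 11, 14 and 11 had lower means than Control. Over all genes the shares lower were 44.6%, 54.1%, 47.4%, 55.9% and 62.3%, to be set beside the counts of each list. The 15 smooth muscle and pericyte genes correlated at 0.497, and 12, 11, 11, 12 and 11 of them were lower. The 12 choroid plexus genes correlated at 0.439, and 7, 9, 8, 8 and 7 of them were lower. Past 1.5-fold were 1, 0, 2, 1 and 0 of them, against 0.0598%, 0.00665%, 0.12%, 0.106% and 0.00665% of all genes. The choroid genes of largest difference were unlike each other: Kcnj13 followed the set singly at 0.956, Ecrg4, a secreted precursor protein, at 0.445 and Ttr, transthyretin, at -0.05. Ttr was at 0.09, -0.20, -0.78, 0.03 and 0.52.

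Marker lists of the remaining cells correlated less with the set but differed from Control in their own ways. Beside their counts of lower genes stand 44.6%, 54.1%, 47.4%, 55.9% and 62.3% of all genes. The 11 hypothalamic neuron genes correlated at 0.161, and 9, 10, 4, 9 and 10 of them were lower, with medians of -0.15, -0.20, 0.04, -0.41 and -0.23. The 12 endothelial genes correlated at 0.107, with 11, 4, 12, 7 and 9 lower and medians of -0.20, 0.03, -0.18, -0.06 and -0.02. Of the 9 microglial genes (0.118) 0, 3, 4, 7 and 3 were lower, and of the 7 astrocyte genes (0.317) 1, 4, 5, 7 and 6. The 3 blood genes (0.156) had medians of 0.52, 0.08, 0.39, 0.22 and 0.28. The 7 pituitary genes (0.0124) had medians of 0.01, 0.03, 0.03, 0.86 and 0.09. Of them 5 were past 1.5-fold higher after TNF + IL-6 Low, as were 0.173% of all genes. There replicate 3 stood apart with a pituitary level of 5.08, where the highest level in any other group was 1.45. Without that array 13 members instead of 11 were lower by more than 1.5-fold after TNF + IL-6 Low, with a median of -0.42. Of all genes tested, 19 instead of 16 were lower by that much. The part of any other cell type in the members' differences was not tested.

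**Figure D5:**
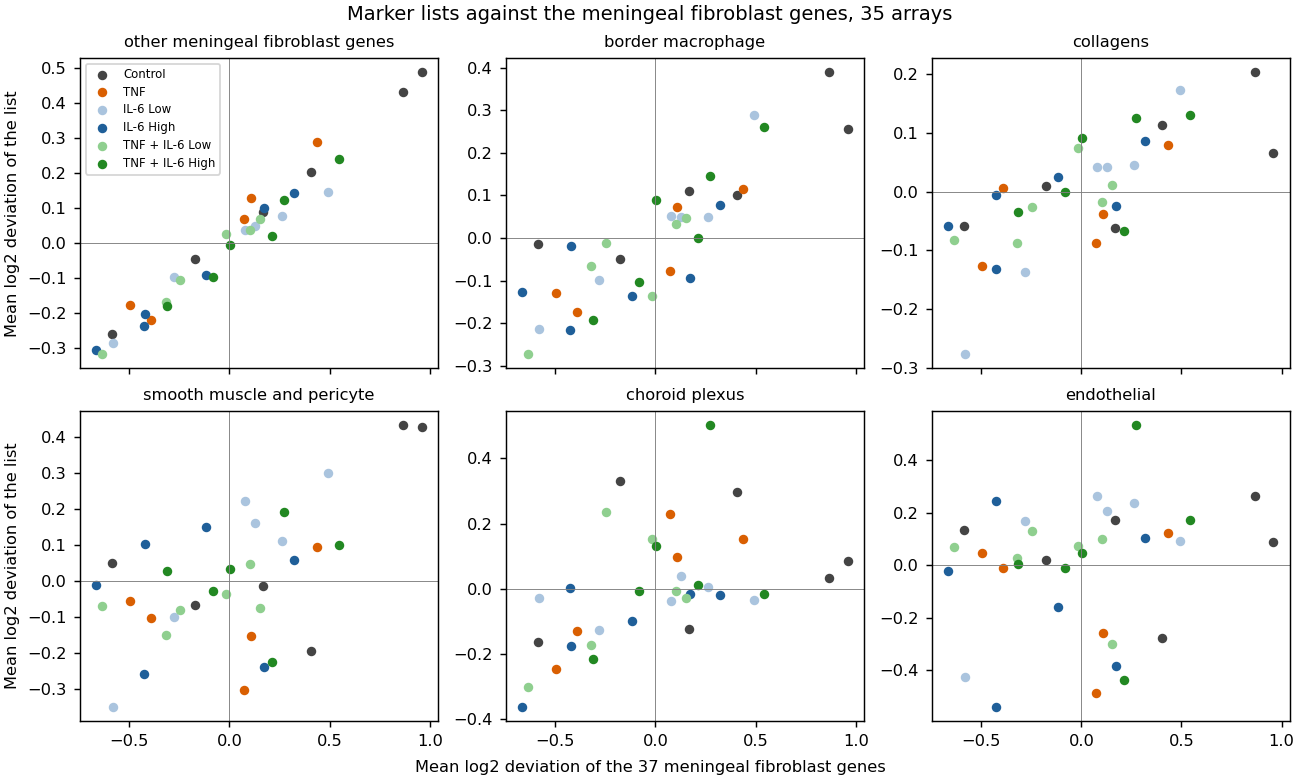
Mean log2 deviation of 6 marker lists (y axes) against that of the 37 meningeal fibroblast genes (x axes) on 35 arrays, coloured by group. Further meningeal fibroblast genes lie on a line (0.988 within groups), border macrophage genes follow more loosely (0.832), and endothelial genes show no such order (0.107).

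Of 10 genes that act with Aldh1a2 and Crabp2 in retinoic acid signalling, 5, 5, 7, 6 and 4 had lower means than Control, with medians from -0.06 to 0.01, and their level correlated with the set at 0.619. Singly, none of the 10 was over 0.6, and their median correlation was 0.27. Beside the counts of lower genes of each pathway list stand 44.6%, 54.1%, 47.4%, 55.9% and 62.3% of all genes. Of 17 BMP and WNT genes 6, 9, 12, 7 and 12 were lower, and the correlation was 0.236. Singly, the median correlation of these 17 genes was -0.03. Lef1, of largest difference, correlated at -0.27 and was at -0.21, 0.21, -0.22, 0.34 and -0.14. Only Bmp4, a ligand like Bmp5, Bmp6 and Bmp7, was over 0.6, at 0.82. Its differences were -0.20, -0.25, -0.28, -0.18 and -0.11. Of 9 IGF pathway genes 5, 6, 8, 4 and 6 were lower, with a correlation of 0.695. Singly, their median correlation was 0.29, which was also that of Igfbp7, the gene of largest difference. Only Igfbp6, a binding protein with a preference for IGF2, was over 0.6, at 0.83. Its differences were 0.02, -0.14, -0.30, -0.22 and -0.08. None of these 36 pathway genes had an adjusted p under 0.05.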

How the data were processed

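The authors deposited log2 intensities from RMA for 36 arrays (Affymetrix Mouse Gene 1.1 ST). The RMA version and the genome build are not given in the sources used here. Each value belongs to a transcript cluster as the manufacturer defines it, although the study remapped probes to genes. They were analysed as deposited, so scaling and background were those of the authors. Of 35556 clusters, 21218 name 1 gene, 1881 several and 12457 none. Those of 1 gene were used, with the cluster of highest mean for the 1386 genes with several (Bmp7, Tbx18 and Gjb2 among the members). Genes over an intensity of 20 on at least 3 arrays were tested. The number of arrays limits the precision.

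Group means were fitted to the 35 arrays in 1 linear model with R 4.3.3 and limma 3.58.1 (lmFit, eBayes with an intensity trend, 29 residual degrees of freedom) and checked on simulated data. P values were adjusted by Benjamini-Hochberg over 15048 genes. Tables and plots used Python 3.11.15. The study excluded 1 TNF array without naming it, and TNF replicate 4 was taken as that array. Mice are taken as independent animals. The members, marker lists and pathway lists were chosen with earlier results of these data known. Per-array values are given for the member of each role with the largest mean difference and for members past 1.5-fold in at least 2 comparisons. Outside the set, the 10 genes of highest correlation and up to 3 genes per list of largest difference may be named, as well as chromosomal neighbours of a family. Correlations are of deviations from group means. Alternatives were all 36 arrays, no filter or a minimum of 50, median centring, quantile normalization, the mean of a gene's clusters, array weights, no intensity trend, the replicate number or the letter in the array name as a block, a fit of the compared groups, and leaving out each array. Promoters are from RefSeq.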

Additional observations from a re-analysis of the deposited data

Results flagged for a closer look

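In groups of 5 or 6 arrays, a single array lay far from the others for 5 of 228 sets of values of the members and their level, or 2.19%, where chance gives about 1 in 20. Bgn on TNF replicate 6 was at 8.38 log2, and the nearest TNF array was at 7.45. Slc22a2 on the same array was at 4.89, and the nearest was at 4.29. Bmp7 on TNF + IL-6 High replicate 4 was at 7.77, against 7.18 for the nearest array. Nupr1 on TNF + IL-6 Low replicate 1 was at 6.66, against 6.11. Ltbp4 on TNF + IL-6 High replicate 1 was the low value of its group, at 6.93, with the nearest at 7.18. TNF replicate 6, TNF + IL-6 High replicate 4 and TNF + IL-6 Low replicate 1 also had the highest level of the whole set in their groups, and Ltbp4 is 1 of the 4 members that vary little with the set.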

How the results depend on the processing

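The medians of the members against Control stayed below 0 under all alternatives run, and no alternative gave a gene with an adjusted p under 0.05 in any comparison. When each array was left out in turn, the count of members lower by more than 1.5-fold ran from 0 to 12 in TNF, 0 to 8 in IL-6 Low, 1 to 21 in IL-6 High, 1 to 18 in TNF + IL-6 Low and 0 to 2 in TNF + IL-6 High, and the medians from -0.44 to -0.17, -0.39 to -0.12, -0.63 to -0.33, -0.57 to -0.29 and -0.38 to -0.04. Besides the control arrays named above, arrays that moved a count by over 1.5 times were TNF replicates 1, 3 and 6 (0, 1 and 10 members), IL-6 Low replicate 4 (3), IL-6 High replicates 1 and 6 (18 and 4), TNF + IL-6 Low replicate 6 (3) and Control replicate 5 (6 in TNF + IL-6 Low). Over all genes tested the counts without these arrays, in the same order, were 3, 5, 21, 6, 36, 7, 7 and 14. Array weights gave 10 members in TNF and 7 in TNF + IL-6 Low, and the cause was not tested. Deviations of arrays with the same replicate number correlated at a median of 0.07 over 85 pairs, from -0.31 to 0.58, with 36 pairs over 0.1 and 14 of 35 arrays closest to their own number. Not every pair was over 0.1, and the number was not used to pair mice in the main fit. Such a cut cannot tell whether arrays of the same number shared conditions. That was not tested beyond the fits with a block. With the replicate block the count in TNF was 1, the cause was not tested, and it changed no other count by over 1.5 times. All 36 arrays gave 7 members in TNF, with Asgr1 at 0.07 there, and a median departure from additive effects of 0.08 after TNF + IL-6 Low. The median of TNF + IL-6 Low against TNF was 0.02 with array weights, -0.09 with median centring and -0.07 with the mean of a gene's clusters. The range of the control level ran from 1.13 to 1.55. Signal over background limits Asgr1, Lum and Slc22a2 most.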

Other observations

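On TNF replicate 4, the array left out, the 37 genes had a mean level of 0.04, between the control arrays, but single genes were out of order: 9 members lay above every control array and 9 below every one. Lum was at 6.28 there, while its control arrays lay between 3.85 and 5.14, and Igf2 was at 6.28, below its lowest control array at 7.16.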
